A study of Mus musculus with 9 samples.

Results

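Acetaminophen (APAP) at 2 mM was compared with control culture medium after 2 h in TAMH cells, with 1 array a side out of the 9 arrays of the study. TAMH is a hepatocyte line derived from the liver of mice that carry a transforming growth factor alpha transgene, so the control cells carry that transgene as well. The labels give the strain as C57BL/6 and the tissue as liver. The other 7 arrays hold control medium at 6 and 24 h, APAP at 2 mM at 6 and 24 h, and AMAP, the meta regioisomer of APAP, at 2 mM at 2, 6 and 24 h. Each array holds total RNA from 1 harvest of 2 confluent dishes, and the design text calls the study preliminary. The cells are 1 cultured line, kept without the other cells of a liver.

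The comparison takes the value on the APAP array minus the value on the control array at 2 h, on the log2 scale, for every probe set. Of 22690 probe sets, 20380 were paired with 1 gene symbol, which gave 12384 genes. For 6699 of these genes the most strongly hybridised probe set had a mean over the 9 arrays of at least 5.67 log2, the median over all probe sets, and these are called expressed. A gene is 2-fold apart where the log2 difference is at least 1 and the higher array reads at least 5.66, the median of all values. With 1 array a side no test can be made and no p-value is given. A difference was instead set against the further probe sets of the same gene and against the range of the 3 control arrays. Those 3 arrays differ in time in culture, so their range holds both culture time and array error, which cannot be told apart. In RNA from a whole dish, fewer cells of a type and less RNA per cell cannot be told apart either.

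APAP is cleared in the liver by sulphate and glucuronide conjugation, and a part is oxidised by cytochrome P450 enzymes to a reactive quinone imine that binds glutathione and, once glutathione is used up, proteins. Differentiated hepatocytes express genes of fatty acid oxidation, amino acid breakdown, drug metabolism and plasma proteins, and cells that take up growth or adhesion signals transcribe immediate-early genes first and then genes of the cytoskeleton, matrix and ribosome. The study's title names p53 and the difference in expression between APAP and its less toxic regioisomer, and the 2 h comparison gives the early difference between APAP and medium.

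Technical readouts of the paired arrays were compared first. The 32 bacterial control probe sets above the median of all values differed by at most 0.21 log2, and the 3′ minus 5′ value of Gapdh was -0.25 on the control array and -0.29 on the APAP array. For beta-actin the same value was 0.47 and 0.27, against 0.34 and 0.38 on the other control arrays, and the part of this gap in the results was not tested. Hepatocyte markers were present: 27 of 32 measured read above the median of all values in control and 25 of 32 in APAP, with albumin at 13.28 and 13.02. Asgr1, Serpinc1, Prox1, Onecut1 and Apoc3 were at or below 5.45 on both arrays. Of markers of other liver cells, 1 of 14 for macrophages (Cd14), 1 of 12 for stellate cells (Dcn) and 1 of 11 for endothelial cells (Egfl7) read above that median on each array, while Ptprc, Lrat and Pecam1, defining markers of those cells, read at most 3.31. The summed level of the expressed members was 10.23 and 10.15 for macrophages, 9.97 and 9.49 for stellate cells and 5.91 and 6.04 for endothelial cells, in control and APAP.

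At 2 h most expressed genes of matrix response (19 of 19), ribosome biogenesis (45 of 45), actin (20 of 21) and cytokines (11 of 13) were higher in APAP than in control. Most genes of fatty acid oxidation (24 of 27), peroxisomes (19 of 22), amino acid breakdown (21 of 23) and FoxO-linked quiescence (18 of 19) were lower. Of the expressed genes, 54 were at least 2-fold higher in APAP (0.806% of 6699) and 70 at least 2-fold lower (1.04%). At 1.5-fold these were 251 (3.75%) and 403 (6.02%). The median difference over all expressed genes was -0.01 with an SD of 0.37, and its quartiles were -0.22 and 0.16. Slightly more genes were lower, 3486 or 52.0%, than higher, 3034 or 45.3%. These shares are the reference for the counts of higher and lower members in the gene lists.

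**Figure D1:**
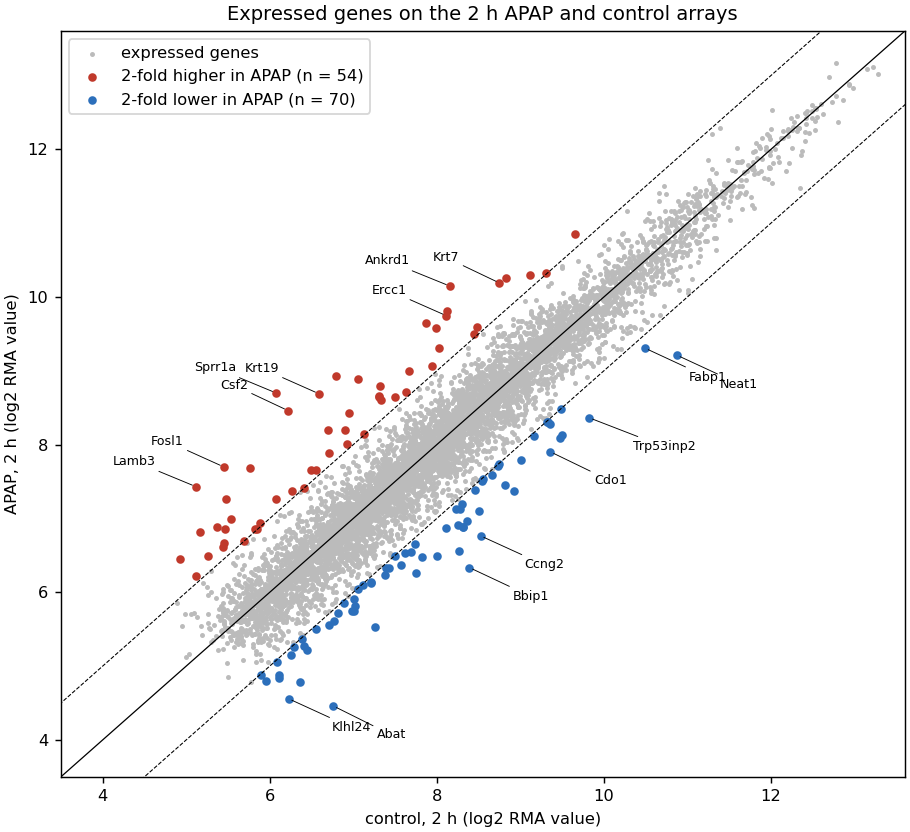
Values of the 6699 expressed genes at 2 h, with the control array on the horizontal axis and the APAP array on the vertical axis, both in log2 RMA units. The solid line marks equal values and the dashed lines a 2-fold difference; 54 genes lie above the upper dashed line (red) and 70 below the lower one (blue), with Sprr1a, Lamb3 and Fosl1 far above it and Abat and Bbip1 far below it.

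The 2 h control array itself stood at one end of the control arrays for many of these genes. Among the 54 higher genes it was the lowest of the 3 controls in 43, or 79.6%, against 32.3% of all expressed genes. Among the 70 lower genes it was the highest in 45, or 64.3%, against 26.5%. The controls of the higher genes also differed more among themselves, with a median range of 0.85 log2 against 0.28 for all expressed genes and 0.49 for the lower genes. Choosing genes by a difference from the 2 h control favours genes where that array is extreme, and how much of each difference comes from that array was not tested.

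Measured against all 3 controls, the higher genes lost more of their distance than the lower ones. The APAP value lay above every control array in 47 of the 54 higher genes, where 24.5% of all expressed genes did. It lay below every control array in 69 of the 70 lower genes, where 33.3% did. Genes picked for a difference of at least 1 log2 from 1 of these controls will mostly lie beyond all 3. The 2 counts therefore lend the differences no separate support. The shares of 24.5% and 33.3% are also the reference for the counts of list members above or below all controls. The median distance of the higher genes was 1.31 from the 2 h control and 0.64 beyond the nearest of the 3 controls. For the lower genes it was -1.15 and -0.80. A distance of at least 2-fold beyond the nearest control was reached by 9 expressed genes upwards (0.134%) and by 19 downwards (0.284%). This criterion was added after the values were seen, and the genes it picks are named below with that basis.

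**Figure D2:**
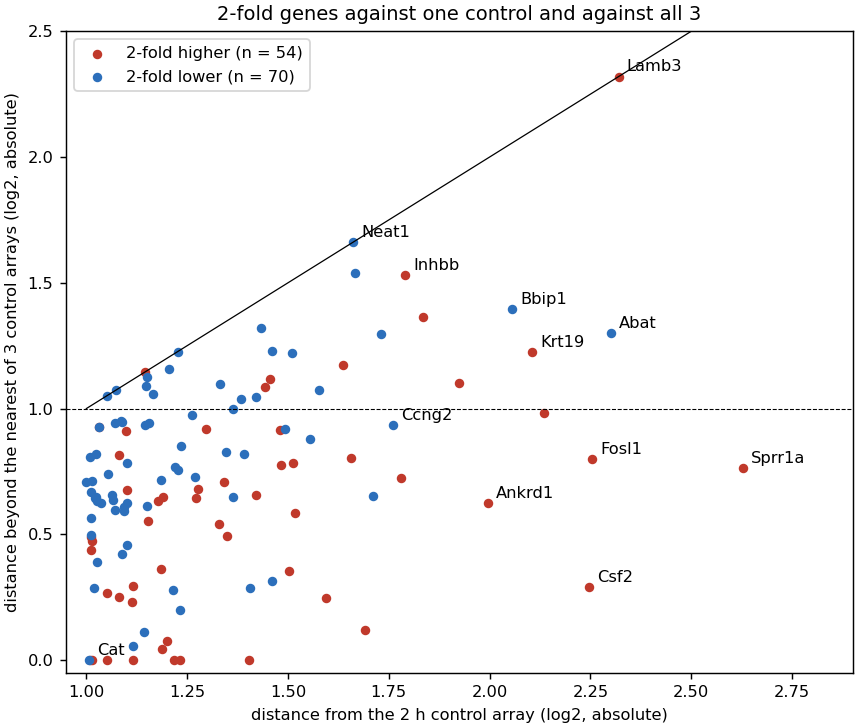
Each of the 124 expressed genes 2-fold apart at 2 h, by its absolute distance from the 2 h control array (horizontal, log2) and its absolute distance beyond the nearest of the 3 control arrays (vertical, log2). Points on the solid line, such as Lamb3 and Neat1, are as far from all controls as from the 2 h control; Sprr1a, Fosl1 and Csf2 lie well under it, and the dashed line marks 2-fold beyond the nearest control.

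Epithelial genes held the largest differences. Lamb3, the beta chain of a laminin that anchors epithelia, read 5.11, 5.07 and 5.03 on the control arrays of 2, 6 and 24 h and 7.43 on the APAP array, a difference of 2.32. The controls were nearly level and the APAP array stood alone, 2.32 log2 above the nearest of them. The AMAP array of 2 h read 5.16. The controls and this AMAP array all read below 5.66, the median of all values, so Lamb3 passed the filter through the APAP array. Its mean over the 9 arrays, 5.69, was just past the expressed level of 5.67. Lamb3 is measured by 1 probe set. Sprr1a, a cross-linked envelope protein of squamous epithelium, read 6.07, 7.94 and 7.75 in control and 8.70 in APAP, a difference of 2.63 from the 2 h control. Here the 2 h control was the low array: the APAP value was 0.76 above the 6 h control, and the AMAP array read 8.71. Cldn1, a tight junction claudin, was 1.03 higher (5.82, 5.93 and 5.66 in control, 6.86 in APAP). Its further probe set above the median of all values was 0.91 higher, and those below it differed by -0.11 and 0.08.

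Keratins of simple epithelium followed in the same direction. Krt19, a keratin of bile duct cells and liver progenitors, read 6.58, 7.38 and 7.47 in control and 8.69 in APAP, a difference of 2.11. Krt7, another bile duct keratin, read 8.75, 8.98 and 9.11 in control and 10.19 in APAP, a difference of 1.44. In both the APAP array was more than 1 log2 above every control, by 1.23 and 1.08, and the AMAP arrays read 7.66 and 9.12. Krt18, a keratin of hepatocytes, was 0.92 higher but 0.29 above the nearest control. The other markers of bile duct and progenitor cells did not accompany Krt19 and Krt7: Sox9 differed by 0.06, Cftr by -0.42 and Prom1 by -0.35, while Epcam read 4.12 and 4.14 and Aqp1 2.91 and 2.86, below the median of all values. The summed level of the 5 expressed members was 9.68 in control and 10.84 in APAP. Of 15 expressed genes of epithelial keratins and junctions, 9 were higher and 6 lower, where 45.3% of all expressed genes were higher. Their median was 0.35, against -0.01 for all expressed genes. Dsc2 (-0.51) and Dsp (-0.32), a desmosomal cadherin and the plaque protein desmoplakin, went against that median.

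**Figure D3:**
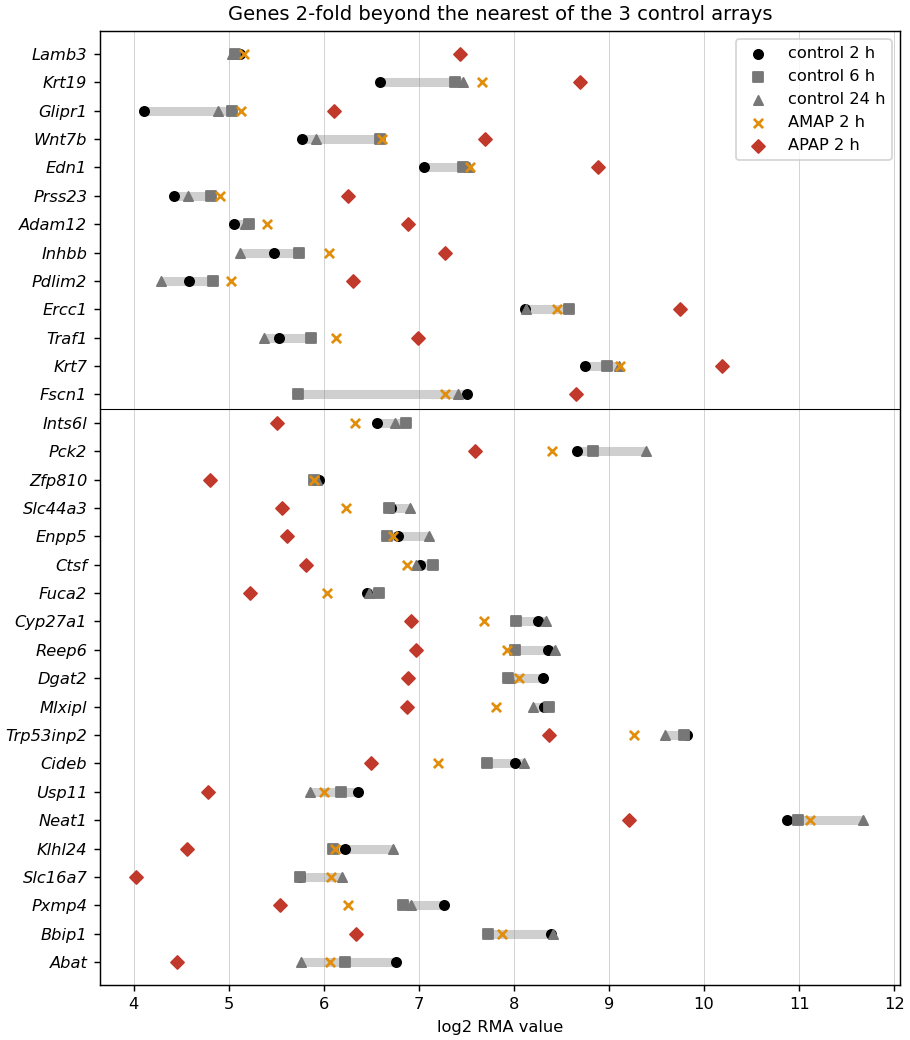
log2 RMA values of the 33 genes whose APAP value at 2 h lies at least 2-fold beyond the nearest of the 3 control arrays, 13 above and 20 below, sorted by the difference from the 2 h control. The grey bar spans the 3 control arrays (circle 2 h, square 6 h, triangle 24 h), the cross is AMAP at 2 h and the diamond APAP at 2 h. Dim genes are included; Lamb3 and Zfp810 have the narrowest control spans and Fscn1 the widest.

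Inhbb, Edn1 and Wnt7b encode secreted signals and were 2-fold above every control. Inhbb, the beta B subunit of activin and inhibin, read 5.48, 5.74 and 5.12 in control and 7.27 in APAP, a difference of 1.79, with 6.05 in AMAP. Its further probe set, below the median of all values, differed by 0.50, and the mean of both by 1.15. Edn1, the vasoconstrictor endothelin, read 7.05, 7.47 and 7.52 in control and 8.89 in APAP, a difference of 1.84, with 7.54 in AMAP. Wnt7b, a Wnt ligand, read 5.77, 6.59 and 5.92 in control and 7.69 in APAP, a difference of 1.92, and its further probe set differed by 2.58. All 3 lay 1.10 to 1.53 beyond the nearest control. Csf2, the cytokine GM-CSF, differed more from the 2 h control, by 2.25, but read 6.22, 8.17 and 7.27 in control and 8.46 in APAP, and the distance to the 6 h control was 0.29. AMAP gave a higher Csf2 value than APAP, 9.18. Of 13 expressed cytokines and chemokines 11 were higher and 2 lower, with a median of 0.57, and 0.41 against the mean of the 3 controls. Lif, leukaemia inhibitory factor, was 0.93 higher, and Vegfa (-0.30) and Bmp4 (-0.13) went the other way.

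Among growth factor receptors and their ligands the members diverged. Hbegf, a membrane-bound ligand of the EGF receptor, read 7.66, 8.45 and 8.28 in control and 8.99 in APAP, a difference of 1.33, and its further probe set differed by 0.83. Erbb3, a receptor of the same family, read 6.25, 5.93 and 6.07 in control and 5.15 in APAP, a difference of -1.10. Both values lay outside the control arrays, by 0.54 and 0.78 in size. Tgfa differed by -0.56, within the range of the controls, and the receptor Egfr by 0.10. The 8 expressed members of the family had a median of -0.14. Of the 14 expressed MAP kinase feedback genes 10 were higher, where 45.3% of all expressed genes were, and their median was 0.11. The transcription factor Etv4 at 0.66 and the inhibitor Spry2 at 0.61 led them.

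Fosl1 led the AP-1 family, whose Jun and Fos proteins pair and bind DNA together. It read 5.45, 6.90 and 6.68 in control and 7.70 in APAP, a difference of 2.25, and its further probe set differed by 2.42. The 2 h control was again the lowest control, and the distance above the nearest control was 0.80. Junb was 0.91 higher and Fosl2 0.61, both inside the control range, while Jun (-0.14) and Mafg (-0.15) were slightly lower. The 10 expressed members had a median of 0.40 against the 2 h control and -0.01 against the mean of the 3 controls, so the sign of the family's median turned with the choice of control. In AMAP the same 10 genes had a median of 1.03 against the same control array. The 20 expressed immediate-early genes behaved alike, with 0.12 and -0.03. Within them Klf10 was 1.22 higher, Ccn1 1.19 and Myc 0.76, and Id2, an inhibitor of helix-loop-helix factors, differed by -0.90.

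Promoters of the genes 2-fold apart were searched for the letters of the AP-1 site, TGANTCA, on both strands. RefSeq gave a promoter, 250 bases before to 50 after the gene's start in GRCm38.p6, for 49 of the 63 higher genes and 57 of the 77 lower genes, here with genes of any mean level. The AP-1 letters stood in 10 of the 49, or 20.4%, and in 5 of the 57, or 8.77%, against 5.85% of the 5537 expressed genes with a promoter and 8.97% of all 27025 genes with one. The related cyclic AMP response element, TGACGTCA, which cannot hold those letters, stood in 6.12%, 3.51% and 3.77% of the higher, lower and expressed genes. A match describes the letters and is no sign that a factor binds there. The promoters of 4 higher genes with a match are shown, picked after their values were seen, with the AP-1 letters in capitals and read 5′ to 3′ on the gene's strand. Sprr1a lies at chr3:92485832-92486131 on the minus strand, with the first of 2 matches at -146 from the start site, and Plaur at chr7:24462233-24462532 on the plus strand, with its match at -69. Emp1, a membrane protein of epithelial cells, lies at chr6:135362681-135362980 on the plus strand and has 2 matches, the first at -145. Gja1, a gap junction connexin, lies at chr10:56377050-56377349 on the plus strand, with its match at -19.
Sprr1a: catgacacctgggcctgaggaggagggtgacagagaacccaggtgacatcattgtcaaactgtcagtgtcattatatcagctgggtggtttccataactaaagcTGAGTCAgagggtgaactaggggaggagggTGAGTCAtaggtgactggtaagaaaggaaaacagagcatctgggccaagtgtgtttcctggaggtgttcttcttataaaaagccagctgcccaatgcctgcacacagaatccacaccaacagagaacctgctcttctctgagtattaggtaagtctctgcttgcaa
Plaur: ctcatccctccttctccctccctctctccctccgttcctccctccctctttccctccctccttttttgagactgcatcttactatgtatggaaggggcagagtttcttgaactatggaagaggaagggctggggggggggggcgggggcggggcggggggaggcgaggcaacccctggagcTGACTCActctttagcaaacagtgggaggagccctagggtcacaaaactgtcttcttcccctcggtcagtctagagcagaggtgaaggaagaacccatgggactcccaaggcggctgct
Emp1: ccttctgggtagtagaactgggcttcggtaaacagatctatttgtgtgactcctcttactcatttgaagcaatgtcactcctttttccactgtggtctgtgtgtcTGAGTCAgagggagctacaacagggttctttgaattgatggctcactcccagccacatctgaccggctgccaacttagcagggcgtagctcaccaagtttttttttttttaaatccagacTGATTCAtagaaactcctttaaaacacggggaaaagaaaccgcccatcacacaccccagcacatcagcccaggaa
Gja1: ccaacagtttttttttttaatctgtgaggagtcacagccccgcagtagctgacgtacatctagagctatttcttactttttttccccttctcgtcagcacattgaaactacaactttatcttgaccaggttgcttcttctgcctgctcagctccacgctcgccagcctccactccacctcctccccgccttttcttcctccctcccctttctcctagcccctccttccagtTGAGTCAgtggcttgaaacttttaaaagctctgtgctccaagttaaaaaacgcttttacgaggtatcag

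The 4 genes with these promoters were not alike against the controls. Gja1 read 6.90, 6.04 and 7.28 in control and 8.20 in APAP, a difference of 1.30. Its 3 further probe sets above the median of all values differed by 1.03, 1.20 and 1.79, and those below it by 0.52 and 0.39. Emp1 read 7.33, 7.43 and 7.96 in control and 8.60 in APAP, a difference of 1.27. Plaur, the receptor of urokinase, read 6.69, 7.84 and 7.34 in control and 8.20 in APAP, a difference of 1.5. Gja1 lay 0.92 beyond the nearest control, Emp1 0.64 and Plaur 0.35. Plaur belongs to the list of plasminogen activation and adhesion receptors, in which 8 of 10 expressed genes were higher, with a median of 0.50. Itgb3, an integrin chain, was 0.84 higher there and Itgb5 lower (-0.34).

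Matrix and TGF-beta response genes were higher without exception, 19 of 19 expressed members, with a median of 0.78. Of these, 12 were past 1.5-fold and 6 past 2-fold, and 11 lay above all 3 controls, where 24.5% of all expressed genes did. Ankrd1, a nuclear ankyrin-repeat protein and target of YAP and TGF-beta signalling, read 8.15, 9.52 and 8.25 in control and 10.15 in APAP, a difference of 2.00 that its further probe set matched at 2.11. Thbs1, the matrix protein thrombospondin, read 7.87, 8.92 and 7.77 in control and 9.65 in APAP, a difference of 1.78, with 1.90 on its further probe set. For Ankrd1 and Thbs1 the APAP array lay 0.63 and 0.73 above the highest control, that of 6 h. Ccn2 and Ccn1, secreted matricellular proteins, differed by 1.20 and 1.19 but lay only 0.08 and 0.04 above the 6 h control. The 2 h control was the lowest control in 13 of the 19 genes, the 6 h control read a median of 0.39 above it and the 24 h control 0.26. Against the mean of the 3 controls the list's median was 0.33, and beyond the nearest control the median distance was 0.04. AMAP gave a median of 0.78 for the same genes against the same control.

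Actin and serum response factor targets had the same direction with smaller differences. Of 21 expressed members 20 were higher, with a median of 0.28, and 12 lay above every control. Cnn2, an actin-binding calponin, read 8.03, 8.60 and 8.62 in control and 9.30 in APAP, a difference of 1.28. Fscn1, the actin-bundling fascin, read 7.50, 5.72 and 7.41 in control and 8.65 in APAP, a difference of 1.14; its 3 further probe sets differed by 1.07, 0.53 and 0.43. Of the 17 higher genes with a further probe set above the median of all values, Fscn1 was the 1 where these did not all reach 0.5. The controls of Fscn1 differed by 1.78 between 2 and 6 h. Fhl2 (0.97) and Zyx (0.94), proteins of focal adhesions, lay inside the control range. Lima1, an actin-binding protein, was the 1 lower member, at -0.58. Aif1l, an actin-binding protein outside the list, read 6.80, 7.95 and 7.40 in control and 8.93 in APAP, a difference of 2.13, with 1.66 and 2.16 on its further probe sets.

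Ribosome biogenesis genes were higher in all 45 expressed members, by 0.14 to 0.96 with a median of 0.51. None was 2-fold apart, 15 were past 1.5-fold, and 36 lay above all 3 control arrays. Rrp9, a component of the small nucleolar particle that processes ribosomal RNA, read 7.79, 8.48 and 7.92 in control and 8.75 in APAP, a difference of 0.96. Ebna1bp2, an assembly factor of the large subunit, read 8.05, 8.36 and 8.19 in control and 8.92 in APAP, a difference of 0.87. Bysl, a small-subunit factor, differed by 0.84 and its further probe set by 0.78, and Rrp12 differed by 0.75. All but Rrp12 of these 4 lay above every control. The 6 h control read a median of 0.31 above the 2 h control and the 24 h control -0.04. Against the mean of the 3 controls, which includes the 2 h control, the list had a median of 0.41. Beyond the nearest control the median distance was 0.18. The AMAP array gave a median of 0.11 for these 45 genes against the same control array.

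The E-box letters CACGTG, which Myc and related factors can bind, were searched in the same promoters after these values were seen. They stood in 11 of the 40 ribosome biogenesis genes with a promoter, or 27.5%, against 12.8% of expressed genes and 8.09% of all genes. The shares were 10.2% of the 2-fold higher and 19.3% of the 2-fold lower genes. Nop2, an RNA methyltransferase of the nucleolus, read 8.21 in control and 8.62 in APAP, and Utp18, a protein of the small-subunit processome, 7.72 and 8.33. Their promoters are shown with the E-box in capitals, as examples with the match before the start site. Nop2 lies at chr6:125131633-125131932 on the plus strand, with the match at -60, and Utp18 at chr11:93885717-93886016 on the minus strand, with the match at -20.
Nop2: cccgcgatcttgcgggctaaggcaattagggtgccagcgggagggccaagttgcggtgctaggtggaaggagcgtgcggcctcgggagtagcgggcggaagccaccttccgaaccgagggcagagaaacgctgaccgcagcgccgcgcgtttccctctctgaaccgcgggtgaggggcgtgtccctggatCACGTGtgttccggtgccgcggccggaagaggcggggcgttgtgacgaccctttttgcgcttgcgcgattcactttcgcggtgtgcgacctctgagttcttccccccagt
Utp18: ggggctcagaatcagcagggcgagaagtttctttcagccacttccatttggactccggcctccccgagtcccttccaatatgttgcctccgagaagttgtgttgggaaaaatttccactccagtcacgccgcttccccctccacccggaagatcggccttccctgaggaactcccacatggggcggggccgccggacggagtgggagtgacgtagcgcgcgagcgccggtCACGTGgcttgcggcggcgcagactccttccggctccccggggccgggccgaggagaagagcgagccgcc

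Genes of DNA replication and entry into S phase differed less. Of 38 expressed members 27 were higher and 9 lower, with a median of 0.11. Above all controls lay 24 of them, where 24.5% of all expressed genes did. Ccnd1, the cyclin that opens the G1 phase, read 10.28, 10.55 and 10.26 in control and 11.17 in APAP, a difference of 0.90, with 1.33 and 0.39 on its further probe sets. Its kinase partner Cdk6 read 5.77, 5.62 and 5.82 in control and 6.51 in APAP, a difference of 0.74. The remaining 36 lay between -0.32 (Tyms) and 0.42 (Rfc4). Mitosis genes had a median of 0.00 over 34 expressed members, from -0.35 (Cdc25c) to 0.65 (Ect2). Nucleotide synthesis and tRNA charging genes had a median of 0.07 over 21.

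Further single genes were higher as well. Ercc1, a subunit of a DNA repair nuclease, read 8.11, 8.57 and 8.13 in control and 9.75 in APAP, a difference of 1.64, with 8.45 in AMAP. Traf1, an adaptor of tumour necrosis factor receptors, read 5.53, 5.87 and 5.37 in control and 6.99 in APAP, a difference of 1.46. Both lay more than 1 log2 above every control and are measured by 1 probe set. There were also 4 dim genes, whose mean over the 9 arrays lies under the expressed level, 2-fold above every control. Adam12, a metalloprotease, read 5.05, 5.21 and 5.17 in control and 6.88 in APAP, a difference of 1.83. Pdlim2, Prss23, a serine protease, and Glipr1 differed by 1.73, 1.83 and 2.00. Tnnt2, troponin T, was 2.19 higher (3.91, 5.63 and 5.22 against 6.10) and Il18rap, an interleukin receptor chain, 1.96 higher, but they lay 0.47 and 0.11 above the nearest control.

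**Figure D4:**
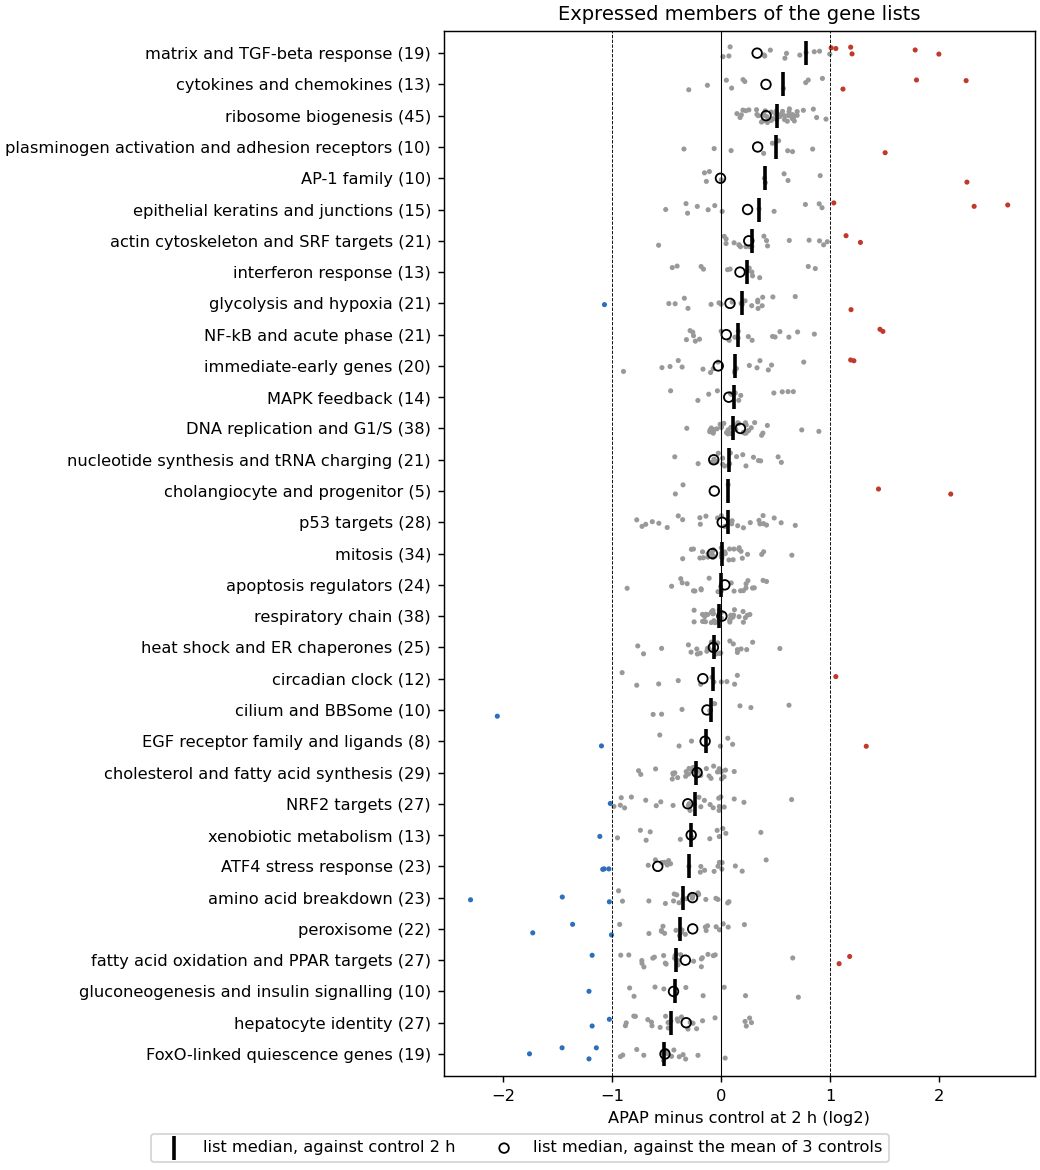
Differences between APAP and control at 2 h (log2) of the expressed members of 33 gene lists, with the number of expressed members in brackets. Dots are genes, red or blue where at least 2-fold apart and spread vertically only to show them; the bar is the list's median against the 2 h control and the open circle its median against the mean of the 3 control arrays. The circles of the matrix, AP-1 and ATF4 lists lie far from their bars, while those of the FoxO and ribosome biogenesis lists lie close to them.

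On the lower side, hepatocyte identity genes had a median of -0.46 over 27 expressed members. Of these 23 were lower and 16 lay below all controls, where 33.3% of all expressed genes did. Fabp1, the liver fatty acid binding protein, read 10.49, 10.02 and 10.21 in control and 9.31 in APAP, a difference of -1.19, with -1.06 on its further probe set. Tat, tyrosine aminotransferase, read 6.29, 5.89 and 6.79 in control and 5.26 in APAP, a difference of -1.03. Both APAP values lay below every control, by 0.72 and 0.63. Fga, a fibrinogen chain, differed by -0.88 and Ttr, transthyretin, by -0.87, with -1.21 and -1.17 on the further probe sets of Ttr, while Fgg (0.28) and Nr1h4, the bile acid receptor (0.26), were higher. The 2 h control was the highest control in 20 of the 27 genes, and against the mean of the 3 controls the median was -0.32. Beyond the nearest control the median distance was -0.06. The summed level of the list was 15.33 in control and 14.91 in APAP. AMAP gave a median of -0.41 for the same genes against the same control.

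Fatty acid oxidation genes and PPAR targets were lower in 24 of 27 expressed members, with a median of -0.41, and 23 lay below all controls. Next to Fabp1, Acot1, an acyl-CoA thioesterase, differed by -0.92 (8.22, 7.66 and 8.23 in control, 7.30 in APAP). The 3 members that were higher include regulators. Ppara, the nuclear receptor that controls this programme, read 6.92, 6.39 and 7.19 in control and 8.0 in APAP, a difference of 1.08. Pdk4, the kinase that shuts off pyruvate oxidation, read 6.71, 6.28 and 7.25 in control and 7.89 in APAP, a difference of 1.18. Their values lay 0.82 and 0.63 above the highest control, and AMAP read 6.88 for Ppara and 7.85 for Pdk4. Ppara thus differed in the direction opposite to the median of the list that carries its targets.

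Peroxisomal genes were lower in 19 of 22 expressed members, with a median of -0.38. Pxmp4, a peroxisomal membrane protein, read 7.26, 6.83 and 6.92 in control and 5.53 in APAP, a difference of -1.73. Crot, the octanoyl transferase that exports shortened fatty acids, read 8.82, 8.11 and 8.37 in control and 7.46 in APAP, a difference of -1.36. Cat, catalase, differed by -1.01 (9.49, 8.46 and 9.19 in control, 8.48 in APAP), with -0.82 on its further probe set, and was the 1 lower gene whose APAP value fell inside the control range. Amacr, a racemase of branched fatty acids, differed by -0.93, and Pex14 and Pex3, factors of peroxisome assembly, by 0.21 and 0.06. Against the mean of the 3 controls the list had a median of -0.26.

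Amino acid breakdown held the largest difference on the lower side. Abat, the transaminase of GABA, read 6.76, 6.22 and 5.76 in control and 4.46 in APAP, a difference of -2.30. Its further probe set read 3.36 and 3.35, below the median of all values, so that the mean of both probe sets differed by -1.15. The controls of the first spread over 1.0 log2 and the APAP array lay 1.30 below the lowest of them. Cdo1, which oxidises cysteine, read 9.36, 8.22 and 8.37 in control and 7.90 in APAP, a difference of -1.46, of which 0.32 lay beyond the controls; AMAP read 7.79. Gstz1, an enzyme of tyrosine breakdown, differed by -0.94. Of 23 expressed members 21 were lower and 16 lay below all controls, with a median of -0.35. The 2 higher members were Bckdhb (0.07) and Got1 (0.06).

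Some genes of lipid and sterol metabolism outside these lists, picked after their values were seen, were also lower. Mlxipl, the carbohydrate response factor ChREBP, read 8.31, 8.36 and 8.20 in control and 6.88 in APAP, a difference of -1.43. Dgat2, the last enzyme of triglyceride synthesis, read 8.31, 7.93 and 7.95 in control and 6.89 in APAP, a difference of -1.42, with -1.05 on its further probe set. Cideb, a lipid droplet protein, read 8.01, 7.72 and 8.10 in control and 6.50 in APAP, a difference of -1.51. The control arrays of these 3 genes spread over 0.17, 0.37 and 0.39 log2, and AMAP read 7.81, 8.06 and 7.20. Cyp27a1, a sterol hydroxylase of bile acid synthesis, differed by -1.33, 1.10 of it beyond the controls. Abcg5, a sterol exporter measured dimly, differed by -1.61. Cholesterol and fatty acid synthesis as a list had a median of -0.23, with 24 of 29 lower, 17 below all controls and none 2-fold apart; Tm7sf2 (-0.76), Dhcr7 (-0.74) and Scd1 (-0.60) were lowest.

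Drug metabolism and antioxidant genes were lower by less. Ugt2b34, a glucuronosyltransferase, read 8.31, 7.25 and 7.98 in control and 7.19 in APAP, a difference of -1.11, with -1.16 on its further probe set, but lay only 0.06 below the 6 h control. Tpmt, a thiol methyltransferase, differed by -0.95 and Cyp3a11, a drug-oxidising P450, by -0.74. Of 13 expressed xenobiotic genes 10 were lower, and the median difference was -0.27. The other 23 of the 36 measured lay below the expressed level, and over all 36 the median was -0.026. NRF2 targets, which answer electrophiles, were lower in 23 of 27 expressed members, with a median of -0.24 and 20 below all controls. The glutathione transferases Gsta3 (-1.02), Gstm1 (-0.93) and Mgst1 (-0.92) and the carbonyl reductase Cbr1 (-0.99) were lowest, and Akr1b8, an aldo-keto reductase, was higher by 0.65.

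FoxO-linked quiescence genes are some of the genes that FoxO factors switch on when growth signals are low. The list was chosen with earlier results of these data known. It had the lowest median of the 33 lists with at least 5 expressed members, at -0.53, and 18 of 19 were lower. This rank holds for the listed members and not for FoxO targets in general. Ccng2, an atypical cyclin that restrains division, read 8.52, 7.70 and 8.43 in control and 6.76 in APAP, a difference of -1.76, with -1.82 on its further probe set. Trp53inp2, a factor of autophagy, read 9.82, 9.79 and 9.59 in control and 8.36 in APAP, a difference of -1.46. Klf15, a transcription factor of fasting metabolism, read 7.58, 6.64 and 6.88 in control and 6.36 in APAP, a difference of -1.21. Trp53inp2 lay 1.23 below the nearest control, Ccng2 0.94 and Klf15 0.28. Hbp1, a repressor of cell cycle genes, differed by -1.15, but its further probe sets differed by -0.99 and -0.29. Of the 18 lower genes with a further probe set above the median of all values, it was the 1 where these did not all reach 0.5 log2 in size. The other 59 of the 77 lower genes lack this check. The list's median was -0.52 against the mean of the 3 controls, which includes the 2 h control. That array was the highest control in 10 of the 19 genes, and the 6 h control differed from it by a median of -0.36. In APAP 11 of the 19 lay below all controls, where 33.3% of all expressed genes did. The median distance beyond the nearest control was -0.16. AMAP gave the list a median of -0.14 against the 2 h control. Of the related list of gluconeogenesis and insulin signalling 7 of 10 were lower, where 52.0% of all expressed genes were, with a median of -0.43. Creb3l3 differed by -0.84 and Foxo1 by -0.80, while Igfbp3 (0.71) and Irs1 (0.22) were higher.

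ATF4 stress response genes, which amino acid shortage and unfolded protein switch on, were lower in 18 of 23 expressed members, with a median of -0.30, and 16 lay below all controls. Ddit3, the stress factor CHOP, read 7.42, 7.28 and 8.28 in control and 6.33 in APAP, a difference of -1.09, while AMAP read 9.14. Pck2, mitochondrial PEP carboxykinase, read 8.66, 8.83 and 9.39 in control and 7.59 in APAP, a difference of -1.07. Chac1, a glutathione-degrading enzyme, read 6.09, 5.99 and 7.62 in control and 5.06 in APAP, a difference of -1.03. In each the 24 h control was the highest array of the 3. Over the list that array read a median of 0.83 above the 2 h control. The list's median was -0.58 against the mean of the 3 controls, which holds that high array. Beyond the nearest control the median distance was -0.15. Cebpb (0.41) and Phgdh (0.19) went the other way. AMAP gave this list a median of 0.39 against the same control. Heat shock and ER chaperones had a median of -0.07, with Herpud1 at -0.77 and Edem1 at -0.71, ER degradation genes, and Hsph1, a cytosolic chaperone, at 0.54; the further probe set of Edem1 differed by -0.01.

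The p53 targets had a median of 0.06 over 28 expressed members, 15 higher, 12 lower and none 2-fold apart. Cdkn1a, the cell cycle inhibitor p21, read 8.67, 9.17 and 9.43 in control and 9.22 in APAP, a difference of 0.55 that lies inside the control range. Mdm2, the ubiquitin ligase of p53, read 9.18, 9.32 and 9.32 in control and 9.28 in APAP, a difference of 0.10. On the AMAP array the same genes read 10.35 and 10.60, and the list had a median of 0.67 against the same control. Trp53inp1 (-0.78), Ddb2 (-0.73) and Ephx1 (-0.69) were lowest and Aen, a nuclease, was highest at 0.68. Apoptosis regulators had a median of -0.00 over 24 expressed members, from -0.86 (Casp6) to 0.41 (Fas).

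The remaining genes far below all controls belong to no common list. Neat1, the non-coding RNA of nuclear paraspeckles, read 10.87, 10.99 and 11.68 in control and 9.21 in APAP, a difference of -1.66, with 11.11 in AMAP. Bbip1, a subunit of the BBSome that carries proteins into cilia, read 8.39, 7.73 and 8.41 in control and 6.33 in APAP, a difference of -2.06. Klhl24, a substrate adaptor of a ubiquitin ligase, read 6.22, 6.10 and 6.73 in control and 4.56 in APAP, a difference of -1.67. Each is measured by 1 probe set and lay 1.40 to 1.66 below the nearest control. Usp11, a deubiquitinase, differed by -1.58, 1.07 of it beyond the controls, and the dim Slc16a7, a monocarboxylate transporter, by -1.73. For Gatad2b (-1.71), a chromatin protein, Lbp (-1.56), the endotoxin binding protein, Cd1d1 (-1.49), a lipid antigen presenter, and the dim Enpep (-1.69), a peptidase, the 2 h control was the highest of the controls and the distance beyond the nearest control was 0.60 to 0.92. The other 7 genes 2-fold below every control were Fuca2, Ctsf, Slc44a3, Zfp810, Enpp5, Ints6l and Reep6, at distances of 1.04 to 1.23; the mean of the probe sets of Fuca2 differed by -0.58.

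Probe sets of the same gene gave like differences at 2 h. For 2575 expressed genes with a further probe set above the median of all values, the representative difference and the mean of the further ones had a Pearson r of 0.80 across genes, which are not independent and share the same 2 arrays. Of the 216 such genes past 1.5-fold, 214 or 99.1% had the further mean in the same direction. Among all genes 2-fold apart, whatever their mean level, 17 of the 63 higher genes had a further probe set above that median. It was also past 2-fold in 10, past 0.5 log2 in 6, and of the same sign in 1, Fscn1. Of the 77 lower genes 18 had one, past 2-fold in 7, past 0.5 in 10 and of the same sign in 1, Hbp1. None of these went the other way. A further probe set counts here where the higher array reaches that median. Those of Wnt7b, Fosl1 and Tnnt2 read 3.83, 3.64 and 3.66 in control and passed only through the APAP array. Some probe sets left out as too low did go the other way. One of Mettl7a1 differed by 0.50 against -1.39 for its representative, while that of Prss23 went the same way, at 1.76. Most genes 2-fold apart, 46 higher and 59 lower, lack this check: 39 and 47 have 1 probe set in all, and in 7 and 12 the further ones read below the median of all values. In Abat, Fuca2 and Crim1 such a dim probe set differed by -0.01, 0.06 and 0.22. Probe sets share the RNA of the same dishes, so they speak for the signal of a gene on these arrays and not for treatment.

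**Figure D5:**
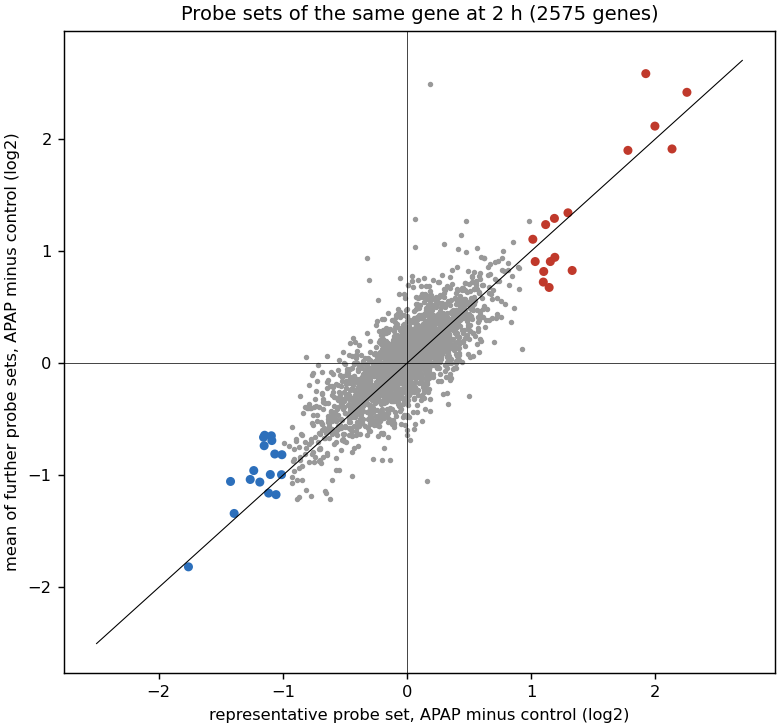
For 2575 expressed genes with more than 1 usable probe set, the difference between APAP and control at 2 h of the representative probe set (horizontal, log2) against the mean of the further probe sets (vertical, log2); the diagonal marks equal differences. Red and blue points are genes whose representative is at least 2-fold apart, and all of them lie in the quadrant of matching sign.

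A few genes 2-fold apart fell inside the range of the control arrays. On the higher side these were 7 of 54. Gadd45g, a growth arrest gene, read 5.46, 6.53 and 6.98 in control and 6.86 in APAP, a difference of 1.40. Fbln2, a matrix protein, read 5.26, 6.84 and 5.83 in control and 6.49 in APAP, a difference of 1.23. In Klf10, Pdgfb and Bhlhe40, too, with differences of 1.22, 1.12 and 1.05, the 2 h control was the lowest of the 3 controls. The 2-fold limit itself divides near neighbours: Tgfb1 at 0.995 and Fhod3 at 0.99 lay just under it on the higher side and Abca1, Crebrf and Cbr1 at -0.99 on the lower side, while Pmepa1 and Hmga2 at 1.01 and Cat at -1.01 lay just past it.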

How the data were processed

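Total RNA of TAMH cells was hybridised to 9 Affymetrix mouse arrays, 1 for each treatment and time. The deposited values are log2 expression; per the submitters' processing notes the authors used RMA and Affymetrix Expression Console. Of software versions, and of whether the 9 arrays went through RMA together, the labels say nothing. RMA equalises the distribution of values between arrays, so a shift shared by most genes would not be seen.

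Probe sets were named from GEO's platform annotation: 20380 had 1 symbol, 691 several, 1555 none, and 64 were controls. Symbols were updated through RefSeq (GRCm38.p6) for 20. A gene is represented by its 1-symbol probe set with the highest mean over the 9 arrays. The comparison is a subtraction, APAP minus control at 2 h, with Python 3.11.15, pandas 2.3.3 and numpy 2.4.6; a cyclic loess alternative used limma 3.58.1 in R 4.3.3. The calling step was run on simulated arrays with known changes and noise below the median control SD of 0.15 log2. That run tests the code and gives no rate of false calls in these data. Precision is limited by having 1 array a side.

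The comparison, the 36 gene lists and the rules were chosen with earlier results of these data known. Named genes are the 15 highest and 15 lowest that are outside the control range. None of their further probe sets above the median of all values differs by under 0.5 log2. In each list they are the members 2-fold apart, up to 4 with the largest differences and up to 2 against the median. To these come up to 5 genes with weak further probe sets, up to 5 within the control range, Cdkn1a and Mdm2, and the hepatocyte and bile duct markers. Genes 2-fold beyond the nearest control, genes with promoters shown, and genes beside the 2-fold limit were added after their values were seen. Promoter sequences are RefSeq's. Trials were the fold, the filter, the probe set rule, cyclic loess, median centring and the mean of the 3 controls; comparisons at 6 and 24 h were left out except where named.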

Additional observations from a re-analysis of the deposited data

Results flagged for a closer look

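Of the 140 genes at least 2-fold apart between APAP and control at 2 h, 14 were at least 2-fold apart the other way at 6 or 24 h, measured against the control array of the same time. These were 8 of the 63 higher genes, or 12.7%, where 8.06% of all expressed genes were 2-fold lower at 6 or 24 h. They were also 6 of the 77 lower genes, or 7.79%, where 3.58% of all expressed genes were 2-fold higher. The 63 and 77 include dim genes, which the shares of expressed genes leave out. With 1 array in each group these differences between times were not tested. The 3′ minus 5′ value of Gapdh was -0.29, -0.05 and -0.10 on the APAP arrays of 2, 6 and 24 h, and that of beta-actin 0.27, 0.08 and 0.28; their part in these results was not tested.

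Fscn1, an actin-bundling protein, was 1.14 higher at 2 h and differed by -3.04 at 24 h. Gja1, a gap junction connexin, was 1.30 higher at 2 h and differed by -2.54 at 24 h. Klf10, an early TGF-beta response gene, was 1.22 higher at 2 h and differed by -1.20 at 6 h and -1.59 at 24 h. Bhlhe40, a transcription factor, differed by -1.78 and Pmepa1, a TGF-beta target, by -1.45 at 24 h. The matricellular Ccn1 and Ccn2 differed by -1.0 and -1.09 at 6 h, and Crim1, a membrane protein that binds growth factors, by -1.37 at 6 h. At 2 h Klf10, Bhlhe40 and Pmepa1 lay inside the control range, and Ccn1 and Ccn2 only 0.04 and 0.08 above it.

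The other 6 genes were lower at 2 h. Abat was lowest at 2 h and was 1.33 higher than control at 24 h. Ctsf, a lysosomal protease, was 1.10 higher, Pbxip1 1.13 higher and Slc38a3, a glutamine transporter, 1.06 higher at 24 h. Prodh2, an enzyme of hydroxyproline breakdown, was 1.45 higher and Slc6a13, a GABA transporter, 1.11 higher at 6 h.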

How the results depend on the processing

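With 1 array a side there is no replicate error, and the limits below concern the choice of control and of genes. No paired analysis was possible because each group has 1 array. The counts of 54 higher and 70 lower genes became 251 and 403 at 1.5-fold and 28 and 52 against the mean of the 3 controls. Those 28 and 52 were called anew among expressed genes. Of the 54 and 70 themselves, 26 and 38 stayed 2-fold apart from that mean. Beyond the nearest control the counts were 9 and 19, an alternative chosen after seeing the data. Without the filter on low values they were 71 and 87, with the mean of a gene's probe sets 47 and 52, with cyclic loess 55 and 65, with median centring 58 and 62, with agreeing further probe sets 53 and 69, and over genes of any mean level 63 and 77, the last also chosen after seeing the data. For 49 of the named genes 196 differences were recomputed under the probe set mean, cyclic loess, median centring and the mean of the 3 controls; all kept their sign, 28 moved beyond the control spread and 13 by over 1.5 times. Of those 13, 3 moved with the probe set mean (Abat to -1.15, Fuca2 to -0.58, Inhbb to 1.15) and 10 with the mean of the 3 controls, among them Sprr1a to 1.45, Fosl1 to 1.36, Csf2 to 1.24, Tnnt2 to 1.18 and Il18rap to 0.90. Of 165 recomputed list medians 143 stayed within the spread (SD) of the list's median over the 3 control arrays. Against the mean of the 3 controls 7 changed sign, AP-1 to -0.0077, immediate-early genes to -0.028, and 5 that lay within 0.07 of 0: bile duct markers, nucleotide synthesis, mitosis, apoptosis and the respiratory chain. Against that mean NF-kB moved to 0.046, matrix to 0.33, plasminogen to 0.33, fatty acid oxidation to -0.33, peroxisome to -0.26, amino acid breakdown to -0.26, mitosis to -0.082 and the respiratory chain to 0.0054. Without the filter epithelial genes moved to 0.14, the EGF receptor family to -0.031, cytokines to 0.17, amino acid breakdown to -0.23, gluconeogenesis to -0.13 and interferon genes to 0.084, with the dim members added. With the probe set mean plasminogen moved to 0.38, fatty acid oxidation to -0.37, gluconeogenesis to -0.23 and apoptosis to 0.091. The respiratory chain lay at -0.034 with cyclic loess and 0.0036 with median centring. Other causes of these shifts were not tested.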

Other observations

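Lists not described above had medians of -0.09 to 0.24, against -0.01 for all expressed genes. Among 21 expressed NF-kB and acute phase genes, 14 were higher, where 45.3% of all expressed genes were, with a median of 0.16. Lcn2, a siderophore-binding acute phase protein, read 7.32, 7.49 and 8.02 in control and 8.80 in APAP, a difference of 1.48. Traf1 differed by 1.46 and Tnfaip3, the feedback inhibitor A20, by 0.85, while Crp (-0.32) and Osmr (-0.29) were lower. Among 13 interferon response genes 9 were higher, against the same 45.3%, with a median of 0.24. The RNA exonuclease Isg20 at 0.86 and the chemokine Cxcl10 at 0.80 led them, while Stat2, a factor of interferon signalling, differed by -0.45.

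In energy metabolism, 13 of 21 expressed glycolysis and hypoxia genes were higher, where 45.3% of all expressed genes were. Their median was 0.19, and 0.08 against the mean of the 3 controls. Pfkfb3, which raises the activator of phosphofructokinase, read 6.07, 6.58 and 6.61 in control and 7.26 in APAP, a difference of 1.19, and its further probe set differed by 0.94. Bnip3, a mitochondrial receptor of autophagy, read 8.46, 7.99 and 8.41 in control and 7.39 in APAP, a difference of -1.07. The 38 expressed respiratory chain genes had a median of -0.02 and none was past 1.5-fold, from -0.25 (Ndufc1) to 0.26 (Cycs). Of 12 expressed circadian clock genes Bhlhe40 was 1.05 higher, while Cry2, a repressor of the clock, differed by -0.91 and Rora, a nuclear receptor of the clock, by -0.78. Beside Bbip1, 9 expressed genes of cilia and the BBSome lay between -0.63 (Ift140) and 0.62 (Ift57).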
